A study of Mus musculus with 20 samples.

Results

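The 10 genes described here encode histone lysine demethylases, the enzymes that take methyl groups off lysines of the histone tails. They were chosen by name from 34937 genes counted in single 8-cell (8C) mouse embryos. Of these, 6 genes are grouped as H3K9 demethylases (Kdm1a, Kdm3a, Kdm3b, Kdm4a, Kdm4b and Kdm4c), and the 4 others (Kdm1b, Kdm2b, Kdm5b and Kdm6b) act mainly on other lysines. The question was whether their mRNA differed between embryos with and without maternal G9a, the H3K9 methyltransferase encoded by Ehmt2.

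RNA-seq was performed on whole single embryos collected at E2.5 from natural matings, with 9 Ehmt2Cntr and 10 Ehmt2Mat embryos analysed here. Ehmt2Cntr embryos came from Ehmt2F/+ females and Ehmt2Mat embryos from Ehmt2F/- females, both Zp3-Cre positive, so that the conditional allele is recombined by a Cre active in growing oocytes in both groups of mothers. All mice were of mixed background, the fathers were Ehmt2+/-, the zona pellucida was removed before lysis, and only embryos of normal 8C morphology were taken. By zygotic genotype, 3 Ehmt2Cntr embryos were +/- and 6 were +/+, while 5 Ehmt2Mat embryos were +/- and 5 were -/-. The labels name neither mother nor litter, so p-values measure the spread between embryos, and litter and maternal genotype cannot be told apart.

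Histone demethylases fall into 2 enzyme classes. Kdm1a and Kdm1b are flavin-dependent amine oxidases, which remove mono- and dimethyl marks, mainly from H3K4. The Jumonji-C enzymes (Kdm2 to Kdm6 families) use iron, oxygen and 2-oxoglutarate. Of these, Kdm3 enzymes remove the mono- and dimethyl H3K9 marks that G9a lays down, and Kdm4 enzymes act on trimethylated H3K9 and H3K36. In early embryos, oocyte transcripts of such enzymes are replaced by zygotic ones as methylation patterns of the gametes are rebuilt.

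Total counts per embryo ranged from 8231646 to 30602434 (median 16424656), so that 3 counts were worth 0.098 to 0.364 CPM (counts scaled to the TMM-normalised library size). The least abundant member, Kdm6b, had 9 to 236 counts per embryo, whereas Kdm5b had 2428 to 10268. Ehmt2 itself averaged 141 ± 59.7 CPM (SD, n = 9) in Ehmt2Cntr, and 102 ± 32.7 CPM (SD, n = 10) across Ehmt2Mat embryos (log2 fold change -0.47, adjusted p = 0.233). Its reads were counted over all exons, recombined or not, so this value does not read out the loss of G9a, which is given by genotype. Control embryo 10 stood apart with 16142 genes detected, against 12068 to 13230 in the other controls and 12754 to 16412 in Ehmt2Mat embryos.

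The start regions of Kdm1a and Kdm4c are shown because both genes were at their lowest in control embryo 7, on which their likeness over embryos largely rests. RefSeq promoter sequences of GRCm38.p6, 250 bases before to 50 bases after a start, were matched for 7 of the 10 members with 13 start sites. Capitals mark the motifs found on either strand. The motifs searched were CACGTG (the E-box), the hypoxia response core ACGTG, which every E-box contains, the GC box GGGCGG, and the CCAAT box.
Kdm1a, chr4:136602674-136602973, reverse strand: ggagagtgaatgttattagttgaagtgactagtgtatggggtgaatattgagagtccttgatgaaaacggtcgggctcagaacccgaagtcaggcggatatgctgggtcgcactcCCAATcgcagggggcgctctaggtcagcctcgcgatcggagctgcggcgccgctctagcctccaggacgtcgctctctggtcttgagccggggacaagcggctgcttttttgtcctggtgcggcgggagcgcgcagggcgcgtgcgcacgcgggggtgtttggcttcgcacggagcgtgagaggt
Kdm4c, chr4:74251629-74251928, forward strand: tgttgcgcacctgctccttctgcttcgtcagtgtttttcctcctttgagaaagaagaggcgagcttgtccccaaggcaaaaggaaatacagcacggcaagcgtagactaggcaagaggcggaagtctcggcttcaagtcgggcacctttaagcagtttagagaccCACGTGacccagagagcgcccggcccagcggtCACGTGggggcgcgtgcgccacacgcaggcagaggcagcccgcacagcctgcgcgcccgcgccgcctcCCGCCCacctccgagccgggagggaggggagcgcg
The Kdm1a window held 29 CG dinucleotides and 1 CCAAT box. The Kdm4c window, the second of its RefSeq starts, held 28 CG dinucleotides, 2 E-boxes and 1 GC box, which lies on the opposite strand. The first Kdm4c start held 0 CG dinucleotides and no match.

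CG-rich starts were common among the members. The median was 26 CG dinucleotides per 300 bases, against 7 over 32851 start sites of all genes. Those sites include genes not expressed in these embryos, and expressed genes alone were not compared. The GC box was found at 61.5% of the member starts and 35.7% of all starts. The shares were 38.5% and 37.4% for the CCAAT box, 7.69% and 7.15% for the E-box, and 15.4% and 19.6% for the hypoxia response core. These matches describe letters in a window and not sites in use, and the starts of 1 gene share sequence.

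None of the 10 demethylases passed the test between Ehmt2Mat and Ehmt2Cntr embryos. Across all genes, 1099 of 11754 tested (9.35%) passed an adjusted p of 0.05 in edgeR's quasi-likelihood test with Benjamini-Hochberg adjustment, 4.37% higher and 4.98% lower in Ehmt2Mat. All 10 members were tested, and 0 were called by edgeR or by DESeq2 (15.1% of all genes called). Of the members 1, Kdm2b, had an unadjusted edgeR p under 0.05, beside 2734 of all 11754 genes tested. No member separated the groups without overlap, as 0.519% of all genes did. Since each library is a whole embryo, fewer cells of a type and less RNA per cell cannot be told apart.

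**Figure D1:**
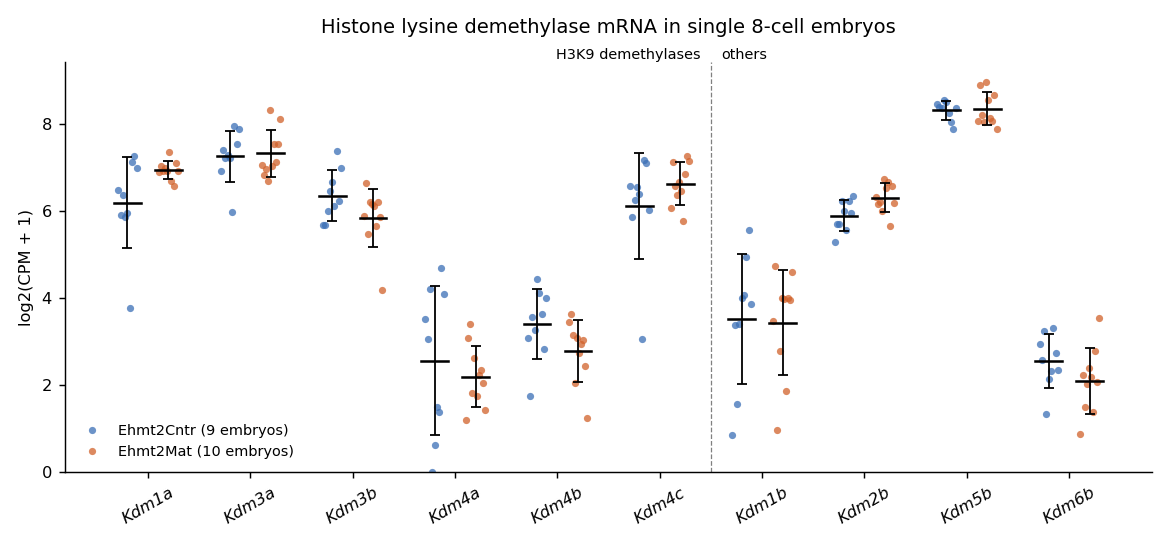
Level of each demethylase in every embryo, as log2(CPM + 1), with 9 Ehmt2Cntr embryos in blue and 10 Ehmt2Mat embryos in orange. Horizontal lines are means and error bars SD, the dashed line separates the H3K9 demethylases from the others, and the groups overlap for all 10 genes.

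Kdm1a encodes the demethylase LSD1, the catalytic subunit of CoREST complexes. Its level was 12.8 CPM at the lowest, 81.8 at the median and 153 at the highest in Ehmt2Cntr embryos, and 93.8, 120 and 163 in Ehmt2Mat embryos. All 10 Ehmt2Mat embryos lay above the control median, and 6 controls lay below every Ehmt2Mat embryo. Mean CPM were 86.3 ± 45.4 (SD, n = 9) in controls, against 123 ± 18.7 (SD, n = 10) in Ehmt2Mat embryos. The log2 fold change was 0.51 (SE 0.28, adjusted p = 0.290) with a 95% interval of -0.08 to 1.10. The coefficient of variation was 52.6% among controls and 15.2% among Ehmt2Mat embryos. Over the fits that left out 1 embryo each, the log2 fold change ran from 0.36 without control embryo 7 to 0.65 without control embryo 9.

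Among the enzymes for mono- and dimethylated H3K9, Kdm3a showed little difference in mean and Kdm3b was the lower in Ehmt2Mat. Kdm3a ranged from 61.6 over a median of 155 to 245 CPM in controls and from 102 over 135 to 318 CPM in Ehmt2Mat embryos. The ranges overlapped over most of their length, and the log2 fold change was 0.07 (SE 0.25, adjusted p = 0.909, 95% interval -0.44 to 0.58). Its sign depended on single embryos, being -0.075 without Ehmt2Mat embryo 5. Kdm3b ranged from 50.1 over 73.9 to 164 CPM in controls and from 17.3 over 63.4 to 98.3 CPM in Ehmt2Mat embryos. Here 9 of 10 Ehmt2Mat embryos lay below the control median, 3 of them below every control. The log2 fold change was -0.51 (SE 0.27, adjusted p = 0.255, 95% interval -1.07 to 0.04).

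The fold changes of the Kdm4 genes differed in sign, with 95% intervals that all included 0. Kdm4a ranged from 0 over 7.32 to 24.9 CPM in controls and from 1.30 over 3.43 to 9.57 CPM in Ehmt2Mat embryos. Of the controls, 4 lay above every Ehmt2Mat embryo and 2 below, and the log2 fold change was -1.12 (SE 0.74, adjusted p = 0.393) with a 95% interval of -2.65 to 0.41. It was -0.16 with a replicate block by embryo number, -0.11 with the block and a length correction and -0.36 with sex as a covariate. Kdm4b ranged from 2.39 over 10.9 to 20.8 CPM in controls and from 1.39 over 6.97 to 11.5 CPM in Ehmt2Mat embryos, 9 of which lay below the control median. Its log2 fold change was -0.75 (SE 0.45, adjusted p = 0.336, 95% interval -1.68 to 0.18).

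Kdm4c, about as abundant as Kdm1a, had the opposite sign to the other Kdm4 genes. It ranged from 7.39 over 82.9 to 143 CPM in controls and from 53.5 over 97.2 to 153 CPM in Ehmt2Mat embryos. Apart from control embryo 7, at the lower end, the groups covered nearly the same range. The log2 fold change was 0.30 (SE 0.32, adjusted p = 0.638, 95% interval -0.37 to 0.97). It was 0.14 without control embryo 7 and 0.435 without control embryo 8, the extremes on leaving out 1 embryo.

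Of the demethylases for other lysines, Kdm2b came closest to the threshold. It encodes an H3K36 demethylase that binds unmethylated CpG islands and recruits a variant Polycomb complex. Its level ranged from 37.8 over 61.0 to 80.5 CPM in controls and from 49.3 over 75.6 to 106 CPM in Ehmt2Mat embryos. Of the 10 Ehmt2Mat embryos, 9 lay above the control median and 4 above every control. The log2 fold change was 0.41 (SE 0.19, 95% interval 0.01 to 0.81), with an unadjusted edgeR p of 0.043 and an adjusted p of 0.197. Of its exonic bases, 8.74% are shared with overlapping genes, among them Rnf34 on the opposite strand, and counting without strand cannot assign such reads.

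Kdm5b, an H3K4 demethylase, had the highest CPM of the members and the smallest spread among controls. It ranged from 233 over 330 to 373 CPM in controls and from 236 over 286 to 499.7 CPM in Ehmt2Mat embryos. Both groups had about the same lowest level, while 4 Ehmt2Mat embryos exceeded every control, and the coefficient of variation was 14.4% among controls and 28.4% among Ehmt2Mat embryos. The log2 fold change was 0.08 (SE 0.16, adjusted p = 0.843, 95% interval -0.26 to 0.42), and a 1.5-fold difference in either direction lay outside this interval, which in folds ran from 0.834 to 1.34.

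Kdm1b and Kdm6b were low and variable. Kdm1b, the oocyte H3K4 demethylase needed for maternal DNA methylation imprints, ranged from 0.811 over 13.7 to 46.6 CPM in controls and from 0.969 over 14.6 to 25.9 CPM in Ehmt2Mat embryos. The groups overlapped almost wholly (log2 fold change -0.31, SE 0.59, adjusted p = 0.821, 95% interval -1.52 to 0.90), and without control embryo 9 the log2 fold change was 0.080. Kdm6b, an H3K27 demethylase, ranged from 1.54 over 5.02 to 9.02 CPM in controls and from 0.834 over 3.39 to 10.7 CPM in Ehmt2Mat embryos. Although 8 of 10 Ehmt2Mat embryos lay below the control median, the highest value was also in an Ehmt2Mat embryo, and the log2 fold change was -0.47 (SE 0.54, adjusted p = 0.667, 95% interval -1.58 to 0.64). Kdm6b shares 4.11% of its exonic bases with the antisense gene Kdm6bos.

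**Figure D2:**
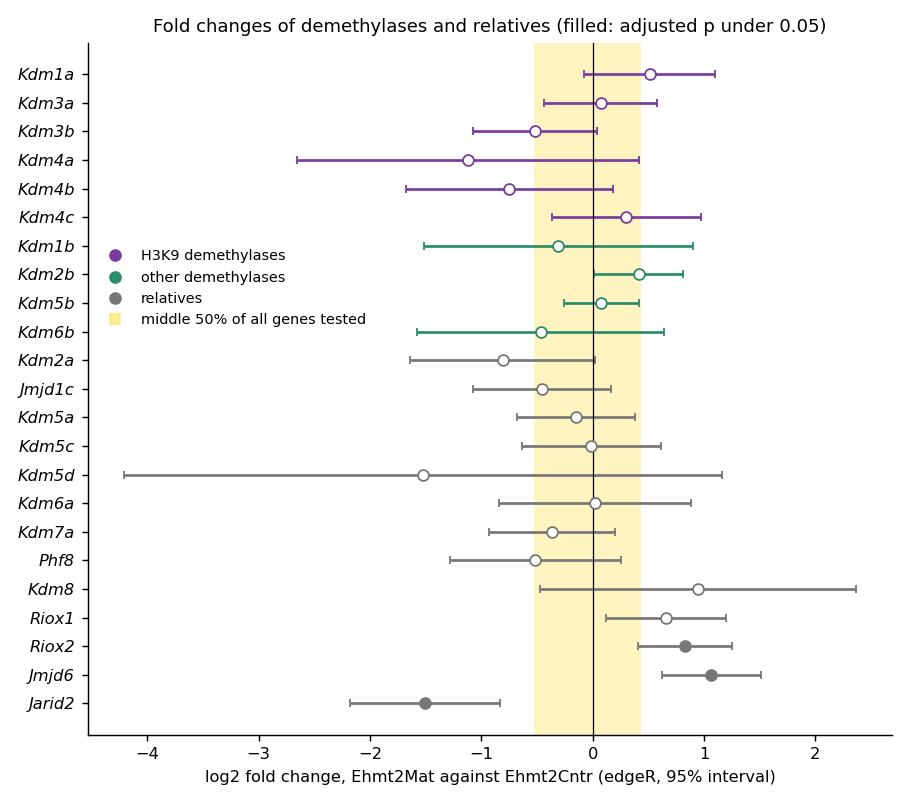
Log2 fold change of Ehmt2Mat against Ehmt2Cntr with its 95% interval (edgeR) for the 10 members and the 13 tested relatives, filled where the adjusted p was under 0.05. The shaded band holds the middle 50% of all genes tested, from -0.53 to 0.44, and the filled points are Jmjd6, Riox2 and Jarid2.

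The H3K9 demethylases and the others both had fold changes on either side of 0. For the H3K9 demethylases the median log2 fold change was -0.22 with 3 of 6 above 0, and that of the other 4 was -0.12 with 2 of 4 above 0. Over all 10 the median was -0.12, beside -0.04 over all genes tested, of which 47.6% were above 0. Summed CPM of the 6 H3K9 demethylases were 439 ± 159 (SD, n = 9) in Ehmt2Cntr and 468 ± 82.8 (SD, n = 10) in Ehmt2Mat embryos, and those of the 4 others 399.6 ± 35.8 and 433 ± 108. The H3K9 demethylases thus held 50.8% ± 10.2 (SD, n = 9) of the counts of the 10 members in controls and 52.3% ± 4.32 (SD, n = 10) in Ehmt2Mat embryos. This share was lowest in control embryo 7, at 31.4%. The difference in means was smaller than either SD.

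Levels between genes were compared per length, as read counts per length of exon and library size (RPKM). In controls Kdm3a was highest at 33.7 ± 11.6 RPKM (SD, n = 9), and was above 83.4% of the genes tested. Kdm5b (19.2 ± 2.77), Kdm1a (16.7 ± 8.77), Kdm4c (14.3 ± 7.03) and Kdm3b (12.2 ± 5.32) followed, and each neighbouring pair of these differed by less than its spread. Kdm2b (5.51 ± 1.34), Kdm1b (3.29 ± 2.97), Kdm4b (2.25 ± 1.16), Kdm4a (1.54 ± 1.55) and Kdm6b (0.767 ± 0.349) made up the lower end. Neighbours here differed by less than the larger of their SDs. These SDs are over embryos, and the genes were not compared within each embryo. The libraries favour the 3′ end of transcripts, so that RPKM divides by more exon than the reads cover, most of all in long genes such as Kdm5b.

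In Ehmt2Mat embryos the order was nearly kept. Kdm3a was again highest at 35.4 ± 15.2 RPKM (SD, n = 10), and Kdm1a (23.7 ± 3.62) stood before Kdm5b (20.3 ± 5.77), a pair that differed by less than its spread. Kdm6b was lowest, at 0.555 ± 0.401 RPKM.

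Levels of some members went together from embryo to embryo. Pearson r was taken over 19 embryos for 45 pairs of members, with each group's mean taken off log2 CPM. The highest was Kdm1a with Kdm4c (r = 0.84), at 0.91 among controls and 0.23 among Ehmt2Mat embryos, and it dropped to 0.50 without control embryo 7. The pairs Kdm1a with Kdm3a (r = 0.60) and Kdm3a with Kdm4c (r = 0.59) also rested on that embryo and were 0.28 and 0.26 without it. Kdm3b with Kdm4b (r = 0.65) was 0.69 without it and was similar in both groups, at 0.57 and 0.73. The lowest was Kdm4b with Kdm6b (r = -0.40). Points share a library and its scaling, and these values are descriptions.

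**Figure D3:**
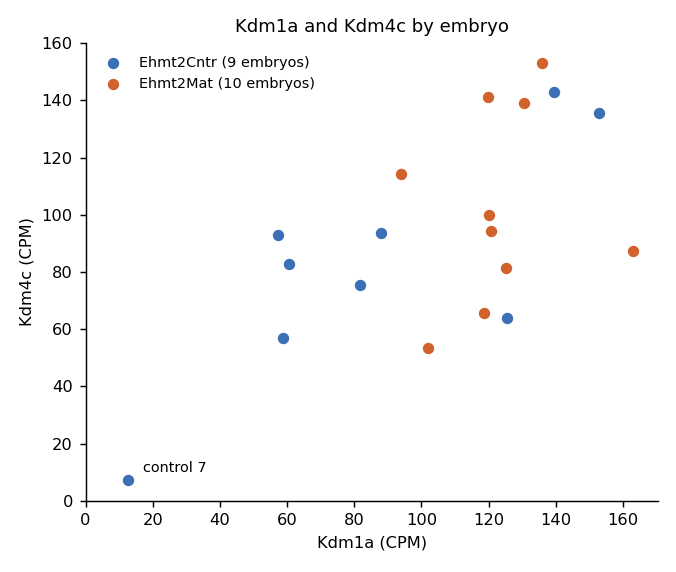
CPM of Kdm1a against CPM of Kdm4c in each of the 19 embryos, Ehmt2Cntr in blue and Ehmt2Mat in orange. Control embryo 7 is labelled at 12.8 and 7.39 CPM, and the other 18 embryos form a loose cloud in which the groups overlap.

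By the same measure, each member had a gene most like it among those tested. These were Wdr92 for Kdm1a (r = 0.93), Glipr1 for Kdm3a (0.89), Wdr59 for Kdm3b (0.84), Angptl4 for Kdm4a (0.79), Pex14 for Kdm4b (0.83) and Mkrn2 for Kdm4c (0.91). For the other members they were Gm17066 for Kdm1b (r = 0.89), Sephs1 for Kdm2b (0.85), Ddx51 for Kdm5b (0.75) and Txnrd3 for Kdm6b (0.81). Each is the highest of 11754 genes, and the 99th percentile of r lay between 0.550 and 0.729 depending on the member. These values were not taken again without control embryo 7, which was the lowest control in Kdm1a, Kdm3a and Kdm4c.

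Embryos were also compared by their zygotic copy of Ehmt2, in groups of 3 to 6 in which few or no genes of any kind were called, so that a count of 0 says little about the members. Within Ehmt2Mat, 0 of 10 members passed between -/- and +/- embryos (edgeR adjusted p, 0% of 12195 genes called, 0 members at an unadjusted p under 0.05). Within controls, 0 of 10 passed between +/- and +/+ (0% of 12646 genes called, 0 members at an unadjusted p under 0.05). Between Ehmt2Mat and Ehmt2Cntr embryos of the +/- genotype, 0 of 10 passed (0.00746% of 13401 genes called, 0 members at an unadjusted p under 0.05). The test of the zygotic effect in Ehmt2Mat minus that in controls also called 0 of 10 members (0% of 15224 genes, 0 at an unadjusted p under 0.05). DESeq2 called 0 members in each of these comparisons. In the same order, it called 3 of 12195, 3 of 12646, 75 of 13401 and 105 of 15224 genes.

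Among the members, the difference between zygotic genotypes was largest for Kdm1b within controls and for Kdm6b within Ehmt2Mat, and neither passed. Kdm1b was at 0.811, 1.99 and 13.7 CPM in the 3 +/- controls and at 21.1 ± 14.6 CPM (SD, n = 6) in +/+ controls, a log2 fold change of -1.92 (edgeR 95% interval -3.94 to 0.11, unadjusted p = 0.062, adjusted p = 0.9998). For Kdm4a, +/- controls averaged 14.7 ± 3.79 CPM (SD, n = 3), against 6.03 ± 9.59 CPM (SD, n = 6) for +/+ controls. Among +/- embryos alone, its log2 fold change between Ehmt2Mat and Ehmt2Cntr was -1.57 (95% interval -3.37 to 0.22, edgeR adjusted p = 0.806). That of Kdm1b, at -0.31 over all embryos, was 1.49 among +/- embryos (95% interval -0.91 to 3.90, edgeR adjusted p = 0.932). Kdm6b, at 2.60 ± 1.37 CPM (SD, n = 5) in -/- and 5.12 ± 3.42 CPM (SD, n = 5) in +/- Ehmt2Mat embryos, had a log2 fold change of -0.97 (95% interval -2.66 to 0.71, edgeR adjusted p = 0.9997). The log2 fold change of Kdm4b was -0.08 within Ehmt2Mat and 0.04 within controls. Kdm2b had 88.3 ± 17.2 CPM (SD, n = 5) in -/- and 71.3 ± 15.1 CPM (SD, n = 5) in +/- Ehmt2Mat embryos (log2 fold change 0.31, 95% interval -0.23 to 0.85, edgeR adjusted p = 0.9997).

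Outside the 10 members, 17 further genes of the demethylase families were examined, of which 13 were tested. Of these 13, 2 rose and 1 fell, beside 4.37% and 4.98% of all genes tested. Jmjd6, a Jumonji-C protein that hydroxylates lysines and has been described as an arginine demethylase, ranged from 125 over 149.7 to 263 CPM in controls and from 214 over 290.0 to 620.1 CPM in Ehmt2Mat embryos. Of the Ehmt2Mat embryos 6 lay above every control, and Jmjd6 rose by a log2 fold change of 1.07 (SE 0.22, adjusted p = 0.0032). Riox2, a ribosomal oxygenase, ranged from 50.9 over 103 to 148 CPM in controls and from 107 over 190.5 to 227 CPM in Ehmt2Mat embryos. It rose by 0.83 (log2, SE 0.20, adjusted p = 0.012), with 7 Ehmt2Mat embryos above every control. However, 22.4% of its exonic bases overlap Crybg3 on the opposite strand, and 7.34% of those of Jmjd6 overlap other genes.

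Jarid2, a Jumonji protein without demethylase activity that binds Polycomb complex PRC2, was the relative that fell. It ranged from 118 over 312 to 1207 CPM in controls and from 116 over 136 to 226 CPM in Ehmt2Mat embryos. All 10 Ehmt2Mat embryos lay below the control median, 6 controls lay above every Ehmt2Mat embryo, and the log2 fold change was -1.51 (SE 0.33, adjusted p = 0.0052). Without control embryo 7, the highest, Jarid2 was at -1.14 (edgeR adjusted p = 0.013). Without the 6 embryos above 100 CPM of Ovgp1, an oviduct secretory gene, 1 relative of 3 was still called, Jmjd6 (adjusted p = 0.030). Jarid2 (log2 fold change -1.43, adjusted p = 0.124) and Riox2 (0.64, adjusted p = 0.237) were not, with 8 controls and 5 Ehmt2Mat embryos left.

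The 10 tested relatives that did not pass spread to both sides of 0. On the log2 scale, the H3K36 demethylase Kdm2a was at -0.81 (adjusted p = 0.226), the H3K9 enzyme Jmjd1c at -0.45 (0.394), and the H3K4 enzymes Kdm5a, Kdm5c and Kdm5d at -0.15 (0.796), -0.01 (0.987) and -1.52 (0.536). Kdm5d is Y-linked, and 5 of 9 Ehmt2Cntr and 9 of 10 Ehmt2Mat embryos were called male, above 1 CPM of summed Y-linked genes. Ehmt2Mat embryo 4 passed at only 2.31 CPM, beside 83.4 CPM or more in the others called male. Embryos under the cut had 0.904 CPM or less. The call of Ehmt2Mat embryo 4 is thus uncertain, and the fit with sex as a covariate used it. The H3K27 enzyme Kdm6a was at 0.02 (adjusted p = 0.982), the plant homeodomain enzymes Kdm7a and Phf8 at -0.36 (0.465) and -0.52 (0.442), Kdm8 at 0.94 (0.449) and the ribosomal oxygenase Riox1 at 0.66 (0.118). The other 4 were too low to test. Kdm4d had 0 counts in all 19 embryos, which allows up to 0.098 to 0.364 CPM per embryo for counting error, and Uty, Phf2 and Hr reached at most 6.28, 1.39 and 0.243 CPM.

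Some partners of the LSD1 enzymes fell. Of 12 tested partners of Kdm1a and Kdm1b, 3 fell and 0 rose, with a median log2 fold change of -0.56, beside 4.98% of all genes lower and their median of -0.04. Rcor1, the CoREST scaffold that ties Kdm1a to chromatin, ranged from 181 over 290.0 to 412 CPM in controls and from 48.5 over 141 to 259 CPM in Ehmt2Mat embryos. Of the latter, 8 lay below every control, and Rcor1 fell by 1.06 on the log2 scale (SE 0.28, adjusted p = 0.016). Its paralogue Rcor2 ranged from 23.3 over 64.0 to 99.2 CPM in controls and from 6.81 over 24.2 to 49.1 CPM in Ehmt2Mat embryos (log2 fold change -1.24, SE 0.32, adjusted p = 0.016). All 10 Ehmt2Mat embryos lay below the control median for both genes.

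Hmg20b, another CoREST subunit, fell between controls (68.3 ± 31.4 CPM, SD, n = 9) and Ehmt2Mat embryos (37.5 ± 10.9 CPM, SD, n = 10), with a log2 fold change of -0.86 (SE 0.26, adjusted p = 0.036). This call was lost in 9 of 19 fits that left out 1 embryo each, with adjusted p up to 0.090, for instance without control embryos 1, 6 or 7 or Ehmt2Mat embryos 1, 2, 3, 5, 8 or 9. It was also lost with no filter on low counts (adjusted p = 0.054) and without both control embryos 7 and 10 (adjusted p = 0.085). The deacetylases Hdac1 and Hdac2, which act beside Kdm1a, were at 0.24 (adjusted p = 0.549) and -0.14 (adjusted p = 0.875). Without the 6 embryos high in Ovgp1, Rcor2 was still called (log2 fold change -1.68, adjusted p = 0.035). Rcor1 (-0.98, adjusted p = 0.178) and Hmg20b (-0.91, adjusted p = 0.193) were not, with fold changes close to those over all embryos.

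**Figure D4:**
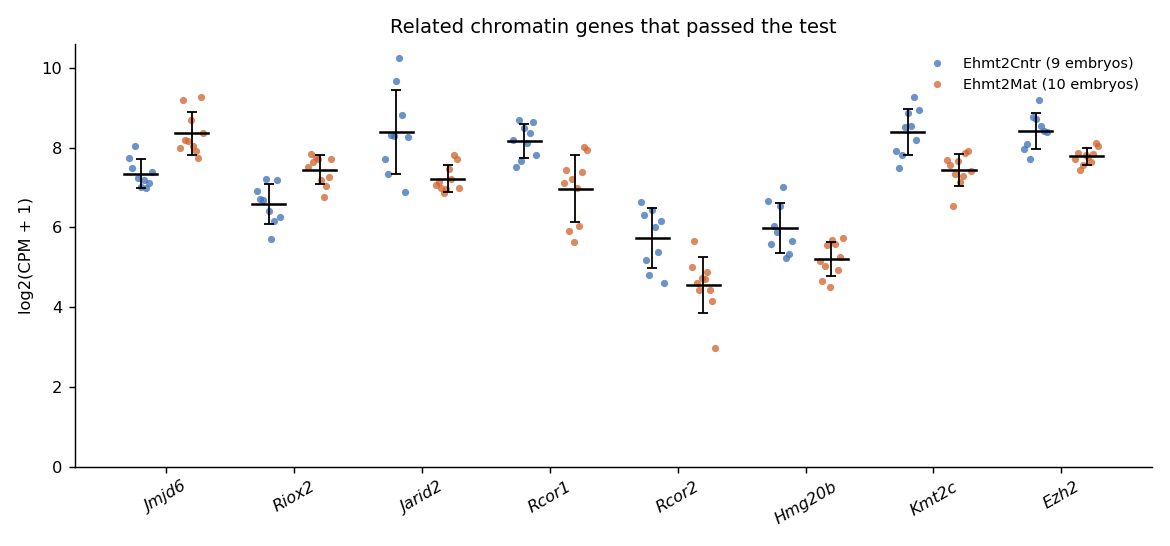
Level per embryo, as log2(CPM + 1), of the 8 related chromatin genes that passed the test, with 9 Ehmt2Cntr embryos in blue and 10 Ehmt2Mat embryos in orange. Lines are means and error bars SD, and Jmjd6 and Riox2 are higher and the other 6 lower in Ehmt2Mat.

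In the other chromatin lists, 2 genes passed. None of 9 partners of Kdm2b passed (median log2 fold change 0.24, 1 at an unadjusted edgeR p under 0.05), nor did any of 6 H3K9 methyltransferases (median 0.20, 0 at an unadjusted p under 0.05). Of 13 tested methyltransferases for H3K4, H3K27 and H3K36, 2 fell, beside 4.98% of all genes, and the median was -0.32 with 2 of 13 above 0. Kmt2c, which methylates H3K4 at enhancers, averaged 360.4 ± 143 CPM (SD, n = 9) among controls, against 179 ± 45.0 CPM (SD, n = 10) among Ehmt2Mat embryos, with a log2 fold change of -1.01 (SE 0.22, adjusted p = 0.0050). Ezh2, the H3K27 methyltransferase of PRC2, went from 358 ± 114 to 221 ± 32.0 CPM, a log2 fold change of -0.69 (SE 0.17, adjusted p = 0.012). Without the 6 embryos high in Ovgp1 the log2 fold changes were -0.79 and -0.60, with adjusted p of 0.149 and 0.204, and neither passed. Of 15 enzymes that make or use 2-oxoglutarate, the co-substrate of the Jumonji-C class, 0 passed and 3 had an unadjusted edgeR p under 0.05. The counts of unadjusted p in these lists stand beside 2734 of 11754 genes tested.

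**Figure D5:**
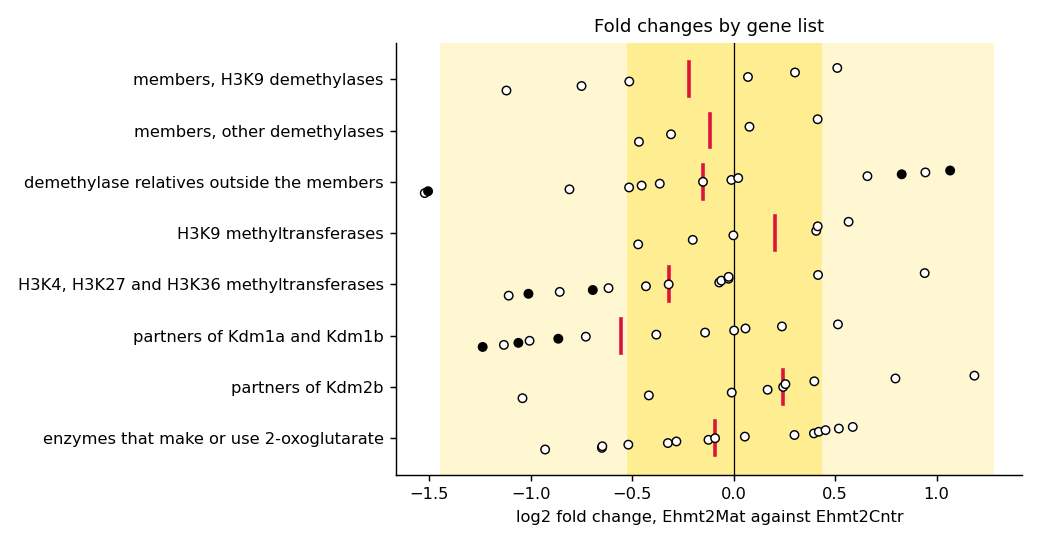
Log2 fold change of each tested gene by list, filled where the adjusted p was under 0.05, with the list's median as a red line. Shading marks the middle 50% and the middle 90% of all genes tested, and 10 of 10 members are open points within the wider band.

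Levels of markers of other cells were also examined. The oviduct and blood list (8 genes, 2 of them tested, 0 called, none at 0 in all embryos) summed to between 0.045 and 394 CPM in controls and between 10.99 and 2824 CPM in Ehmt2Mat embryos. Most of this was Ovgp1, which was above the control median in 10 of 10 Ehmt2Mat embryos and at 371 CPM in control embryo 10 (log2 fold change 3.41, adjusted p = 0.093). Without the 6 embryos above 100 CPM of Ovgp1, 0 members were called, beside 321 of 11952 genes. The granulosa and cumulus list summed to at most 5.02 CPM, with 5 of 8 genes at 0 in all embryos. Of the 8C markers, all 9 were tested and 2 rose, Tead4 (0.90, adjusted p = 0.0046) and Tfap2c (0.75, adjusted p = 0.018), which without those embryos were at 0.85 and 0.95 with adjusted p of 0.080 and 0.053. Of 9 tested oocyte markers, Oosp1 rose (2.70, adjusted p = 0.0028). Of 6 matched markers of the 2-cell and 4-cell stages, 1 was tested and 0 were called (0 at an unadjusted edgeR p under 0.05).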

How the data were processed

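RNA of 9 Ehmt2Cntr and 10 Ehmt2Mat single 8C embryos (E2.5) was analysed, grouped by the maternal genotype in the labels. Ehmt2Cntr embryo 4 has no counts used here. The authors deposited raw counts of reads per Ensembl gene, which per the file headers were made with featureCounts 1.5.0-p1 on exons of Ensembl release 82 (GRCm38), with a minimum overlap of 10 bases, with reads counted for every gene they overlap and with multi-mapping reads kept, without strand. The submitters' processing notes name TopHat2, featureCounts and DESeq2. cDNA amplification favours 3′ ends.

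From these counts, edgeR 4.0.16 (R 4.3.3) was run with its filter on low counts, TMM normalisation, the quasi-likelihood test and Benjamini-Hochberg adjustment over 11754 genes (threshold 0.05). CPM used TMM-scaled library sizes and RPKM the exonic length in the files. For correlations, 2 was the prior count of log2 CPM. Intervals are 95% from the fit, and intervals and the 3-count level cover no amplification error. Overlapping exons were taken from the gene models in the count files (Ensembl release 82, GRCm38). Scripts were tested on simulated data. No libraries were identical.

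Embryo numbers occur in both groups. Embryos with the same number correlated at -0.156 to 0.0856 in their deviations from group means (mean 0.012, 9 pairs), so numbers were not taken as pairs. Alternatives were RLE scaling, DESeq2 1.42.0, no filter, at least 10 counts in every embryo, a replicate block, a length correction, sex as a covariate, 1 fit of all genotypes, and leaving out each embryo. Leaving out embryos above 100 CPM of Ovgp1, or control embryos 7 and 10, was chosen after seeing the data. The members and gene lists were chosen with earlier results of these data known. Named genes are the members, Ehmt2, the relatives, list genes that passed, and for each member the gene of highest correlation. Hdac1, Hdac2 and Ovgp1, and members named for their levels by zygotic genotype, were singled out after their values were seen.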

Additional observations from a re-analysis of the deposited data

Results flagged for a closer look

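In Ehmt2Mat embryo 10, Kdm6b was at 10.7 CPM, far above the next highest of the 10 Ehmt2Mat embryos. It was the only value to stand apart in this way among 20 groups of embryos tested (10 members in both groups). Were CPM normally distributed, chance alone would give about 1 in 20 groups. The test used CPM and was not run on log2 CPM, where low values weigh more. On this scale control embryo 7 was not flagged for Kdm1a, at 12.8 CPM against 57.3 in the next lowest control. Without Ehmt2Mat embryo 10 the log2 fold change of Kdm6b was -0.78 and the call did not change.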

How the results depend on the processing

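The count of demethylases that passed was 0 in the comparison of Ehmt2Mat with Ehmt2Cntr under all alternatives run, as for the H3K9 demethylases and the others taken separately, and 0 in the 4 comparisons by zygotic genotype. The difference between the median log2 fold changes of both classes stayed between -0.28 and -0.014. Of single genes, signs turned only on leaving out 1 embryo, with log2 fold changes of -0.075 to 0.16 for Kdm3a, -0.49 to 0.080 for Kdm1b and -0.0019 to 0.13 for Kdm5b. Without embryos above 100 CPM of Ovgp1, Kdm3a was at 0.52 and Kdm6b at -0.11, 1 relative passed instead of 3, and 321 genes in all; this leaves fewer embryos. DESeq2 called 1771 genes. A replicate block by embryo number left 693 genes and 0 members, and moved Kdm4a from -1.12 to -0.16, Kdm1b from -0.31 to -0.043 and Kdm4c from 0.30 to 0.53. With the block, Hmg20b (adjusted p = 0.068), Ezh2 (0.057) and Tfap2c (0.082) were lost. Once length was corrected too, 2 relatives passed and Jarid2 (adjusted p = 0.060) was lost. The 95% intervals of Kdm1a, Kdm3b, Kdm4a, Kdm4b, Kdm1b and Kdm6b reached a 2-fold difference in 1 direction or both. For these genes the absence of a call therefore does not exclude a difference of that size. At least 10 counts in every embryo removed 3 members.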
